A study of Mus musculus with 6 samples.

Results

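Transcripts of 35 genes that make sterols and fatty acids, or that control this synthesis, were followed in CD8+ T cells of mouse spleen that had been activated and kept for 24 h with vehicle or with blebbistatin. The genes were chosen by name, as the rows of the deposited tables that carry the symbol of a member, and all 35 were found among the 47729 genes listed in each library. The sterol arm held 25 genes, of which 18 code for enzymes, 5 for regulators and 2 for sterol carriers or binders, and the fatty acid arm held 10 enzymes. RNA was sequenced from 3 libraries labelled Vehicle and 3 labelled blebbistatin, a small molecule that blocks the ATPase of nonmuscle myosin II, given at 2 µM. The labels state the organ, the cell type and that the cells were activated. They do not state the strain, sex or age of the mice, the stimulus, the solvent, or whether replicates came from separate animals, so p-values cover only the spread between these libraries, which may be technical.

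Cells build sterols from acetyl-CoA through mevalonate, farnesyl diphosphate, squalene and lanosterol, and they build fatty acids from the same precursor, cut from citrate. Both branches are under the sterol regulatory element-binding proteins, membrane-bound transcription factors encoded by Srebf1 and Srebf2. When sterols are scarce, the escort protein Scap carries these factors to the Golgi apparatus, where they are cut free. When sterols are plentiful, the proteins of Insig1 and Insig2 hold Scap in the endoplasmic reticulum. Srebf2 is known mainly for sterol genes and Srebf1 for fatty acid genes, and T cells switch both branches on when they are activated and grow.

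Depth was 18470000 to 19930000 fragments a library, as the most common ratio between coverage and FPKM gives it at an assumed 300 aligned bases a fragment. That ratio was shared by 30.2% to 30.4% of the genes used for it, so the depth is approximate. At that depth 1 TPM in a transcript of 2 kb rests on 17.7 to 18.9 fragments, and every member stood well above this level. The 6 CD8 T cell genes of a marker list were all present. Cd8a was at 409 to 415 TPM with vehicle and 426 to 433 TPM with blebbistatin, Cd8b1 at 514 to 529 and 552 to 573 TPM, and the effector gene Gzmb at 6935 to 7101 and 5852 to 6517 TPM. The list summed to 9025 to 9200 and 7968 to 8822 TPM, most of it from Gzmb, and Cd4 reached at most 0.244 TPM. The 6 platelet markers summed to 49.3 to 58.5 TPM with vehicle and 109 to 128 TPM with blebbistatin, with Pf4 and Ppbp the highest, and the 6 B cell markers to 28.1 to 30.6 and 50.2 to 56.1 TPM, although Ms4a1 stayed under 1 TPM in each library. The 5 myeloid markers summed to 0.518 to 1.70 TPM, the 3 erythroid markers to 2.26 to 3.50 TPM, and the fat cell gene Adipoq was listed at 0 in every library. The part of platelets and B cells in the results below was not tested. On the first principal component, which held 42.8% of the variance, the vehicle libraries lay between -16.4 and -13.4, while blebbistatin 1, 2 and 3 lay at 30.5, 0.227 and 14.5. In bulk RNA, fewer cells with a transcript and less transcript per cell cannot be told apart.

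All 35 genes were expressed, and all passed the minimum of 1 TPM over the 6 libraries that 13372 genes met. Their mean levels in TPM, a unit corrected for transcript length, ran from 14.9 for Insig2 to 763 for Scd2. Scd2, a desaturase that makes monounsaturated fatty acids, was above 98.7% of the tested genes. It was followed by Fdps, which makes farnesyl diphosphate, at 349 TPM, Acly, which cuts citrate to acetyl-CoA, at 243 TPM, and Hmgcs1, which condenses acetyl-CoA into the precursor of mevalonate, at 237 TPM. At the low end, Tm7sf2, a sterol reductase, stood at 15.4 TPM and Hsd17b7, a sterol ketone reductase, at 21.4 TPM. Between close relatives the levels differed widely. The ratio of Scd2 to Scd1 was 16.6 ± 0.81 with vehicle and 18.0 ± 1.49 with blebbistatin (mean ± SD of 3 libraries, as in all values of this form), with overlapping groups.

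**Figure D1:**
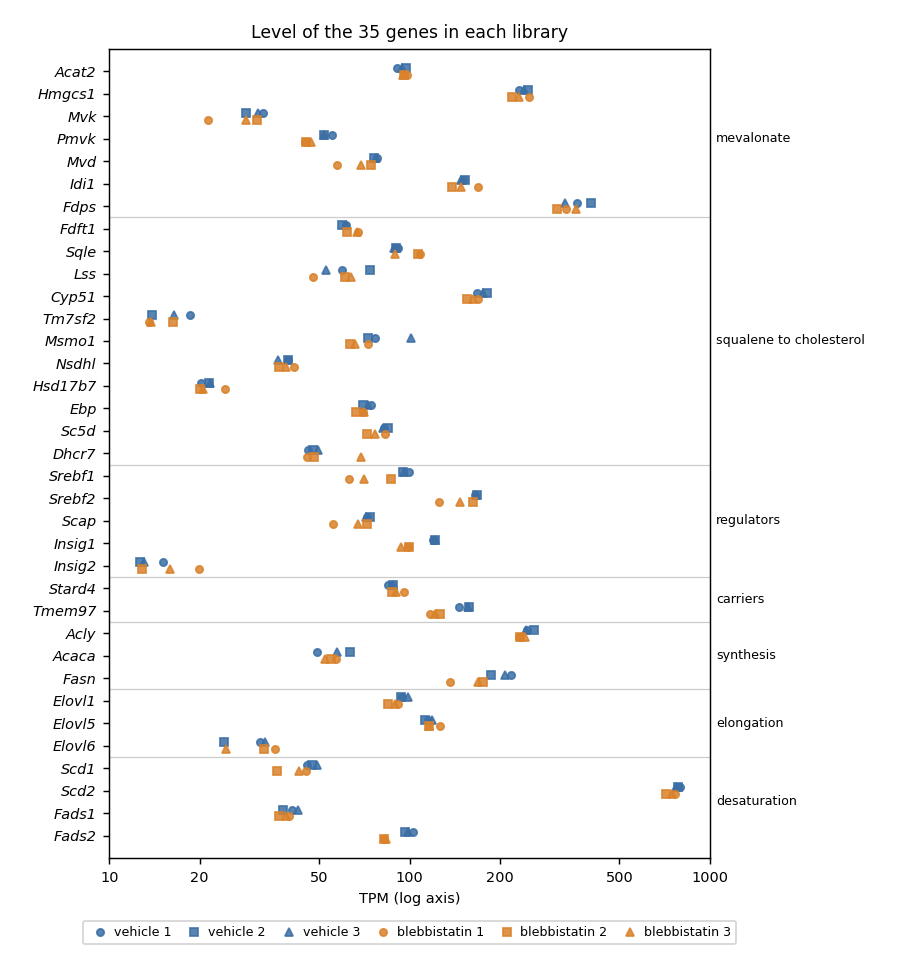
Level in TPM on a log axis of each of the 35 genes (rows, grouped by step) in 3 vehicle libraries (blue) and 3 blebbistatin libraries (orange), with circles, squares and triangles for replicates 1, 2 and 3. Levels run from about the 14.9 TPM of Insig2 to the 763 TPM of Scd2, and for Insig1, Tmem97, Srebf1, Pmvk and Fads2 every blebbistatin library lies below every vehicle library.

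After blebbistatin, 2 of the 25 sterol arm genes fell and 0 rose, and 0 of the 10 fatty acid genes passed in either direction. The test was limma on log2(TPM + 1) over all genes, with Benjamini-Hochberg adjustment at 0.05. Insig1, the retention protein, fell by 0.31 on the log2 scale, and Tmem97, a sterol-binding membrane protein, fell by 0.33. Over all tested genes 1.82% passed, 1.40% higher and 0.426% lower. After a correction of each library for transcript length and GC content, 299 genes (2.25%) were higher and 162 (1.22%) lower in place of 187 and 57, and 3 members, all of the sterol arm, were lower. At an unadjusted p under 0.05, 6 members were lower and 0 higher, where 9.99% of all genes were lower and 12.9% higher, 22.9% in all. Sterol arm members among these were Insig1, Tmem97, Srebf1 and Pmvk, and those of the fatty acid arm were Fasn and Fads2.

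Most differences in both arms lay slightly below 0. The fold change was negative in 16 of 25 sterol arm genes and in 8 of 10 fatty acid genes, against 44.9% of all tested genes. The median log2 fold change was -0.11 in the sterol arm and -0.08 in the fatty acid arm, against 0.03 over all tested genes. By library, the sterol arm median lay at -0.07, -0.07 and -0.05 from the vehicle mean in blebbistatin 1, 2 and 3, and the fatty acid arm median at -0.05, -0.13 and -0.10. The single vehicle libraries lay between -0.01 and 0.01 in the sterol arm and between -0.03 and 0.04 in the fatty acid arm. Every blebbistatin library lay below every vehicle library for 7 sterol arm genes and 6 fatty acid genes, where this held for 13.0% of all tested genes. Within the sterol arm it held for 3 of the 18 enzymes (16.7%), near that share, for 3 of the 5 regulators and for 1 of the 2 carriers. The reverse order held for 1 member, Fdft1, where 18.0% of all genes showed it and 31.0% showed either order.

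**Figure D2:**
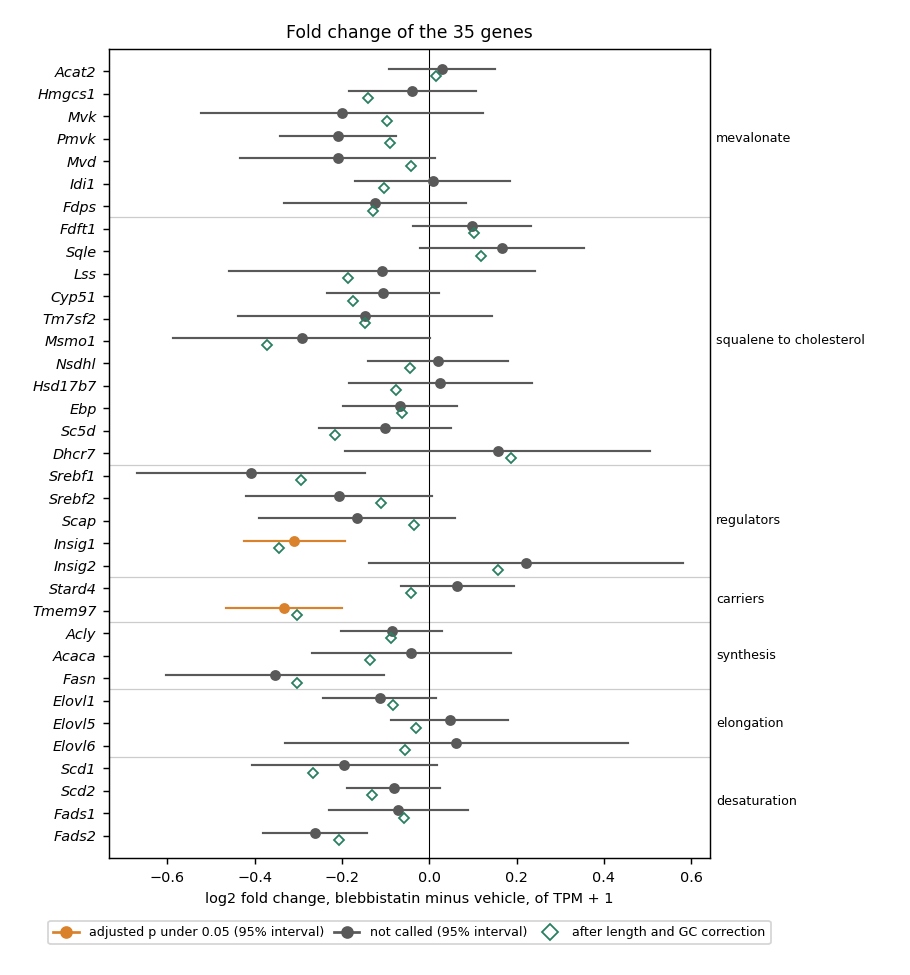
Log2 fold change of blebbistatin against vehicle on TPM + 1 for each of the 35 genes with its 95% interval from limma (circles and lines), and the value after correction for transcript length and GC content (open diamonds). Only Insig1 and Tmem97 (orange) passed the adjusted threshold, at -0.31 and -0.33, and the values lie between -0.41 for Srebf1 and 0.22 for Insig2.

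Among the 5 regulators, the genes of the transcription factors, the escort and Insig1 were lower on average and Insig2 was not. Insig1 (chromosome 5, 28071363 to 28078662 in GRCm38) stood at 120.1, 122 and 121 TPM with vehicle and at 98.6, 99.9 and 94.0 TPM with blebbistatin. The vehicle values lay within 2 TPM of each other and above every blebbistatin value. The log2 fold change was -0.31 (SE 0.05, adjusted p = 0.0372 by limma). Without vehicle 1, 2 or 3 the adjusted p was 0.152, 0.15 and 0.142, without blebbistatin 1 or 3 it was 0.0513 and 0.161, and without blebbistatin 2 it was 0.0232, while the fold change stayed between -0.33 and -0.28. Insig2, the second retention protein, stood at 15.1, 12.7 and 13.1 TPM with vehicle and at 19.9, 12.9 and 15.96 TPM with blebbistatin, and the groups overlapped (0.22, 95% interval -0.14 to 0.58). The ratio of Insig1 to Insig2 was therefore 7.97, 9.58 and 9.28 with vehicle and 4.96, 7.77 and 5.89 with blebbistatin, with no overlap. Of 7 ratios between members that were formed after the values were seen, 3 did not overlap between groups.

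Srebf1, the gene of the factor known for fatty acid synthesis, had the lowest fold change of all 35 members and did not pass. It stood at 99.6, 95.5 and 96.1 TPM with vehicle and at 62.9, 86.9 and 70.6 TPM with blebbistatin, so that the blebbistatin libraries were lower and far more spread. The log2 fold change was -0.41 (SE 0.11, adjusted p = 0.11 by limma). Without blebbistatin 2 it was -0.53 and passed (adjusted p = 0.0175), in a fit where 4.46% of all genes were called lower and 3.73% higher. Srebf2, the regulator with the highest level, stood at 165, 168 and 166 TPM with vehicle and at 126, 162 and 147 TPM with blebbistatin (-0.21, SE 0.09, adjusted p = 0.229). Its vehicle values were nearly equal, and blebbistatin 2 lay close below them. Scap stood at 72.7 ± 1.32 and 65.0 ± 8.46 TPM, with overlapping groups (-0.17, 95% interval -0.39 to 0.06). Levels of Srebf1 and Srebf2 transcripts do not show how much of either factor had been cut free. The ratio of Srebf2 to Srebf1 was 1.66, 1.75 and 1.73 with vehicle and 2.00, 1.87 and 2.08 with blebbistatin, with no overlap.

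Of the sterol carriers and binders, Tmem97 (chromosome 11, 78541817 to 78550777 in GRCm38) fell. It stood at 146, 158 and 156 TPM with vehicle and at 117, 126 and 122 TPM with blebbistatin. All blebbistatin values lay below all vehicle values, and the group means differed by -20.8%. The log2 fold change was -0.33 (SE 0.06, adjusted p = 0.0429 by limma). Leaving out vehicle 1, 2 or 3 gave an adjusted p of 0.119, 0.159 and 0.155, leaving out blebbistatin 1 or 3 gave 0.0627 and 0.164, and leaving out blebbistatin 2 gave 0.0235, with fold changes between -0.37 and -0.31. Stard4, which moves cholesterol between membranes, stood at 87.1 ± 1.83 and 91.1 ± 4.0 TPM, with overlapping groups (0.06, 95% interval -0.07 to 0.19).

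Promoter sequences are shown for Insig1, Tmem97, Fads2 and Fasn, a choice made after the values were seen. Hmgcs1 is set beside them as the promoter that held the full sterol regulatory element. Insig1 and Tmem97 passed, while Fads2 and Fasn had only an unadjusted p under 0.05 by limma. Srebf1 and Pmvk, which also did, are not shown. The sequences come from RefSeq on build GRCm38.p6, where 28 of the 35 members had an entry, and run 5′ to 3′ on the strand of the gene. Bases from the RefSeq start onward are left out, and so are bases that the gene annotation places inside the gene, which begins before the RefSeq start in Insig1 and Tmem97. The printed run therefore ends 50 bases before the RefSeq start of Insig1, 43 before that of Tmem97 and at the base before it in the others. Capitals mark matches on either strand to 5 motifs: the sterol regulatory element TCACNCCAC, its shorter form TCACNCC, which lies within it, the NF-Y box CCAAT, the palindromic E-box CACGTG and the Sp1 box GGGCGG. The regions are chr5:28071162-28071362 on the plus strand, chr11:78550778-78550985 on the minus strand, chr19:10101504-10101753 on the minus strand, chr11:120824548-120824797 on the minus strand and chr13:119690101-119690350 on the plus strand.
Insig1: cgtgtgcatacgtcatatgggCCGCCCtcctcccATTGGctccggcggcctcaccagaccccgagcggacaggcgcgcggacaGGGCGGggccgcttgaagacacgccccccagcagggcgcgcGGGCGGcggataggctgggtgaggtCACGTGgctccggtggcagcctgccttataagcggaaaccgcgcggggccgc
Tmem97: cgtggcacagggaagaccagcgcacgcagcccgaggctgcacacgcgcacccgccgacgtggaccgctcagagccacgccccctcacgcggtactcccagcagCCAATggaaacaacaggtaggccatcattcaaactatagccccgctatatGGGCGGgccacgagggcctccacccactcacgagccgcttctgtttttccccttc
Fads2: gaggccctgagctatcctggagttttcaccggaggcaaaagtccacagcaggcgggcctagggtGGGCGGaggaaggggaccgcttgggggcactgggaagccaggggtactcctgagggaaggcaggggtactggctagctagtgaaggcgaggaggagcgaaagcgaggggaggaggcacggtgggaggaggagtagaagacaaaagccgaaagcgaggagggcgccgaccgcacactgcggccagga
Fasn: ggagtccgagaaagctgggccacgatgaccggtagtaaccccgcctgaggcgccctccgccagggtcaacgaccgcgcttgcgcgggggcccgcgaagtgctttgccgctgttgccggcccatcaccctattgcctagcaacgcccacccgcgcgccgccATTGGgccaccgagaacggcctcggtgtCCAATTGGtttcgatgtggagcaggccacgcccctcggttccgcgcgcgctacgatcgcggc
Hmgcs1: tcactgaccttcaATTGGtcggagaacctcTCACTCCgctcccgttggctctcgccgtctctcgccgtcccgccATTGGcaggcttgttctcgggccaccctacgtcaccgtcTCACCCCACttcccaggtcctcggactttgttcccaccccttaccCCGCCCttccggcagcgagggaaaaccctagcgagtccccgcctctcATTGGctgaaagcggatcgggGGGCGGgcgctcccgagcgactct

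In these windows Insig1 held 1 NF-Y box, 1 E-box and 3 Sp1 boxes, Tmem97 1 NF-Y box and 1 Sp1 box in the printed part, and Fads2 1 Sp1 box. Fasn held 3 NF-Y boxes, of which 2 overlap on opposite strands. The promoter of Hmgcs1 held the full sterol regulatory element, 137 bases before the RefSeq start. The gene annotation places the beginning of Hmgcs1 farther downstream, at 119690462 on chromosome 13. Of 37 promoters of members, 33 had a start that lay in an annotated transcript, and that of Hmgcs1 did not. Over the full RefSeq windows, from 250 bases before the start to 50 after it, the NF-Y box lay in 19 of 21 sterol arm genes (90.5%) and 4 of 7 fatty acid genes, against 43.3% of 8804 tested genes with an entry. For the Sp1 box these were 20 of 21 (95.2%) and 3 of 7 genes, against 69.2%. The full sterol regulatory element was matched in 1 of 28 members and in 1.35% of tested genes, and the shorter form in 5 of 28 and in 19.3%. The E-box lay in 6 of 28 members and in 12.2% of tested genes. A match of letters is not a site in use, and these members were grouped by function, not by promoter. Fdps, Fdft1, Sqle, Stard4, Scd1, Scd2 and Fads1 had no entry.

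**Figure D3:**
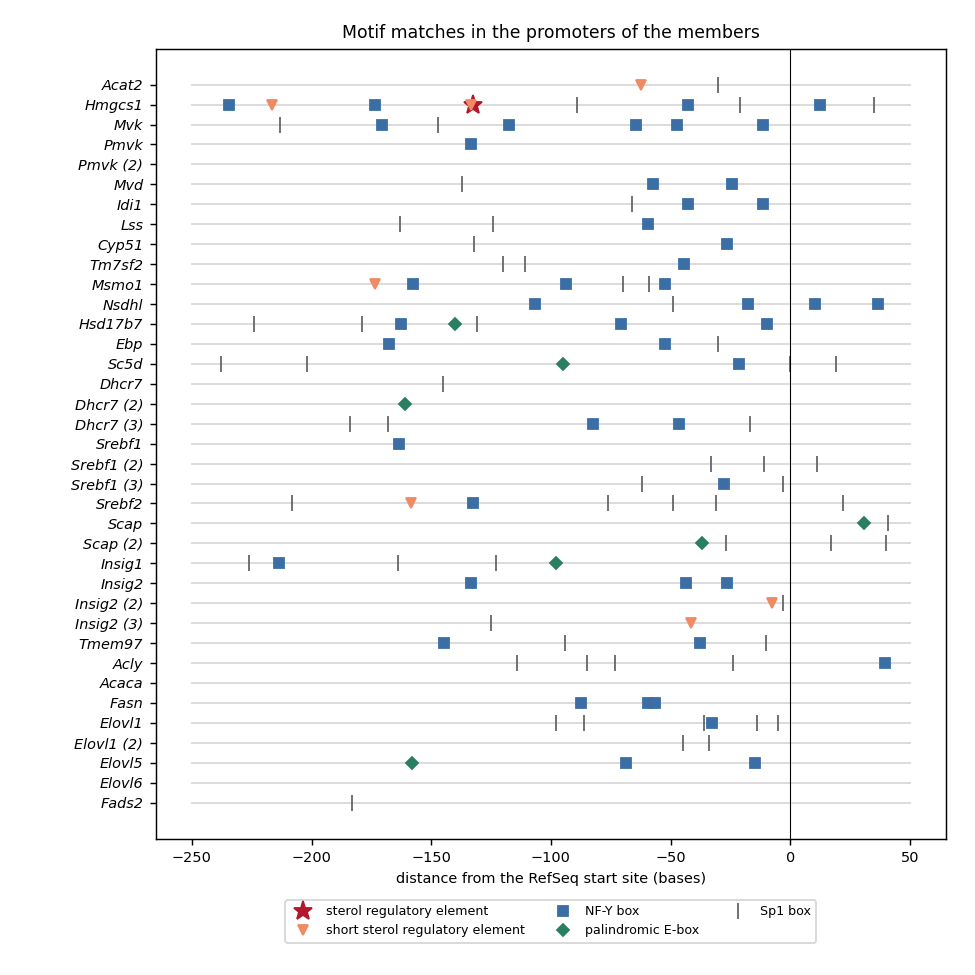
Position of motif matches in the RefSeq promoters of the members, in bases from the start site (horizontal axis, from 250 before to 50 after), with 1 row for each promoter and a number in parentheses for further promoters of a gene. Blue squares (NF-Y boxes) appear in 19 of 21 sterol arm genes, and the star marks the 1 full sterol regulatory element, in Hmgcs1.

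None of the 7 genes from acetyl-CoA to farnesyl diphosphate passed. Fdps, the highest of them, stood at 361, 403 and 328 TPM with vehicle and at 331, 309 and 359.6 TPM with blebbistatin, and its groups overlapped (-0.12, SE 0.09, adjusted p = 0.424). The vehicle libraries alone spanned more than the difference between the group means. Exons of Fdps overlap those of Gm43738 on the same strand over 26.7% of their length, so its level is uncertain to that extent. Smaller overlaps with other genes were found for Scap (13.2%), Hmgcs1 (12.1%), Tm7sf2 (12.1%, Vps51 on the same strand) and Idi1 (9.2%). Pmvk, the kinase that adds the second phosphate to mevalonate, stood at 55.1, 52.0 and 51.9 TPM with vehicle and at 45.0, 45.2 and 46.8 TPM with blebbistatin. The groups did not overlap, and the log2 fold change was -0.21 (SE 0.06, unadjusted p = 0.00738, adjusted p = 0.109 by limma). Mvd, the decarboxylase that follows, stood at 77.0 ± 0.847 and 66.8 ± 8.67 TPM (-0.21, 95% interval -0.43 to 0.01), with its lowest value in blebbistatin 1. Mvk, the first kinase, stood at 30.8 ± 2.02 and 26.9 ± 5.05 TPM, with overlap.

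For another 3 genes of this stretch the interval lay on both sides of 0, although for 2 of them the value moved with the correction for length and GC content. Hmgcs1 was measured at 240.2 ± 8.15 and 234 ± 15.5 TPM in vehicle and blebbistatin libraries (-0.04, 95% interval -0.18 to 0.11), and after the correction the fold change was -0.14 (adjusted p = 0.0763 by limma). For Acat2, which joins acetyl-CoA units, the interval ran from -0.09 to 0.15 around 0.03. For Idi1, the isomerase of the isoprene unit, it ran from -0.17 to 0.19 around 0.01, and the corrected value was -0.11. Hmgcs1, whose promoter is printed above, is a textbook target of the sterol regulatory element-binding proteins, as is Insig1, and the 2 genes lay on different sides of the threshold. Whether their fold changes differ was not tested.

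From squalene to cholesterol, 0 of 11 genes passed, with 6 fold changes below 0 and 5 above. Cyp51, the lanosterol demethylase and the highest of these genes, stood at 168, 180.5 and 176 TPM with vehicle and at 169, 156 and 163 TPM with blebbistatin (-0.11, SE 0.05, adjusted p = 0.289 by limma). Blebbistatin 1 lay within the vehicle values and the other blebbistatin libraries below them. Sqle, the oxygen-dependent epoxidase that limits flux after squalene, was higher in 2 of 3 blebbistatin libraries, with 91.3, 90.5 and 88.5 TPM against 108, 107 and 89.7 TPM (0.17, 95% interval -0.02 to 0.35). Fdft1, squalene synthase, stood at 60.9 ± 0.948 and 65.3 ± 3.09 TPM without overlap (0.10, adjusted p = 0.344 by limma), and its exons overlap those of Ctsb on the opposite strand over 18.3% of their length.

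Msmo1, which removes methyl groups from the sterol ring, had the lowest fold change of these 11 genes. Its levels were 76.8, 72.8 and 101 TPM with vehicle and 72.7, 63.4 and 66.1 TPM with blebbistatin (-0.29, 95% interval -0.59 to 0.00). The gap between the groups was narrow, and the value of vehicle 3 lay apart from the others. Without vehicle 3 the fold change was -0.15. Dhcr7, the last reductase before cholesterol, was high in blebbistatin 3 alone, at 69.1 TPM against 45.5 to 49.6 TPM in the other 5 libraries. Its fold change of 0.16 became -0.03 without that library. Lss, lanosterol synthase, ranged from 52.8 to 74.1 TPM among vehicle libraries and from 47.8 to 63.7 TPM among blebbistatin libraries. Nsdhl, Hsd17b7, Ebp, Sc5d and Tm7sf2, which act on the sterol ring and side groups, had fold changes between -0.15 and 0.03. Sc5d, a sterol desaturase, passed only after the correction for transcript length and GC content (-0.22, adjusted p = 0.0407 by limma).

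In fatty acid synthesis proper, Fasn had a lower fold change than Acly and Acaca, none of them passed, and whether they differ was not tested. Fasn, the multienzyme that makes palmitate, stood at 217, 187 and 208 TPM with vehicle and at 136, 176 and 169 TPM with blebbistatin. Its groups did not overlap, although vehicle 2 and blebbistatin 2 lay close to each other. The log2 fold change was -0.35 (SE 0.11, unadjusted p = 0.0122, adjusted p = 0.129 by limma). Acly stood at 247, 259.6 and 245 TPM with vehicle and at 231, 233 and 243 TPM with blebbistatin (-0.09, SE 0.05, adjusted p = 0.327). The gap between the groups, from 243 to 245 TPM, was smaller than the spread within either of them. Acaca, the carboxylase that makes malonyl-CoA, stood at 56.6 ± 7.18 and 54.7 ± 2.30 TPM, with overlapping groups (-0.04, 95% interval -0.27 to 0.19).

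None of the 3 elongases passed. Elovl5, which lengthens polyunsaturated chains and had the highest level, stood at 115, 113 and 119 TPM with vehicle and at 127, 116 and 116 TPM with blebbistatin (0.05, SE 0.06, adjusted p = 0.65 by limma). Elovl1, which makes very long saturated chains, stood at 95.7 ± 2.69 and 88.4 ± 3.51 TPM without overlap (-0.11, 95% interval -0.24 to 0.02). Elovl6, which extends palmitate, ranged from 24.0 to 32.9 TPM with vehicle and from 24.4 to 35.6 TPM with blebbistatin, and its wide interval (0.06, 95% interval -0.33 to 0.45) leaves its direction unsettled.

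All 4 desaturases had fold changes below 0, and Fads2 came nearest to the threshold. Fads2, the desaturase that opens polyunsaturated fatty acid synthesis, stood at 103, 96.5 and 98.5 TPM with vehicle and at 82.5, 82.0 and 83.4 TPM with blebbistatin. The blebbistatin values were almost equal and all below the vehicle values. The log2 fold change was -0.26 (SE 0.05, unadjusted p = 0.00119, adjusted p = 0.0564 by limma), and over the alternatives the adjusted p ran from 0.0432 to 0.201. Fads1, its neighbour on chromosome 19 and the next desaturase of the same route, stood at 40.3 ± 2.31 and 38.3 ± 1.49 TPM (-0.07, 95% interval -0.23 to 0.09). The ratio of Fads2 to Fads1 was 2.54, 2.54 and 2.32 with vehicle and 2.08, 2.24 and 2.15 with blebbistatin, with no overlap.

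Scd2 stood at 795, 785 and 774 TPM with vehicle and at 764, 713 and 747 TPM with blebbistatin (-0.08, SE 0.05, adjusted p = 0.318 by limma). The order of the groups held in every library while the group means differed by -5.48%. Scd1, the paralog of Scd2 that is prominent in liver and fat, stood at 47.3 ± 1.72 and 41.4 ± 4.66 TPM (-0.20, 95% interval -0.41 to 0.02), with its lowest value in blebbistatin 2. Without that library the fold change was -0.10. The paralogs are similar in sequence, and how the authors' counting shared reads between them is not given in the sources used here.

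Summed over genes with no correction for length and GC content, the groups lay apart in some steps and overlapped in others. The 5 regulators summed to 472, 472 and 468 TPM with vehicle and to 363, 434 and 395 TPM with blebbistatin. The 3 genes of fatty acid synthesis summed to 511 ± 1.62 and 451 ± 23.2 TPM, and the 4 desaturases, of which Scd2 made up most, to 972 ± 10.6 and 904 ± 32.3 TPM. In these 3 steps and in the carriers the groups did not overlap. The sums of the 7 mevalonate genes (999, 1058 and 972 TPM against 972, 914 and 979 TPM), of the 11 genes from squalene on (750.1 ± 10.7 and 729.7 ± 18.3 TPM) and of the 3 elongases overlapped. The sum of a step follows its most abundant genes, and no test was made of these sums because the members were named with earlier results known. After the length and GC correction the median fold change of the regulators was -0.11 in place of -0.21. Corrected medians were -0.10 for mevalonate, -0.08 from squalene on, -0.17 for carriers, -0.14 for synthesis, -0.06 for elongation and -0.17 for desaturation. Whether the steps differ was not tested.

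**Figure D4:**
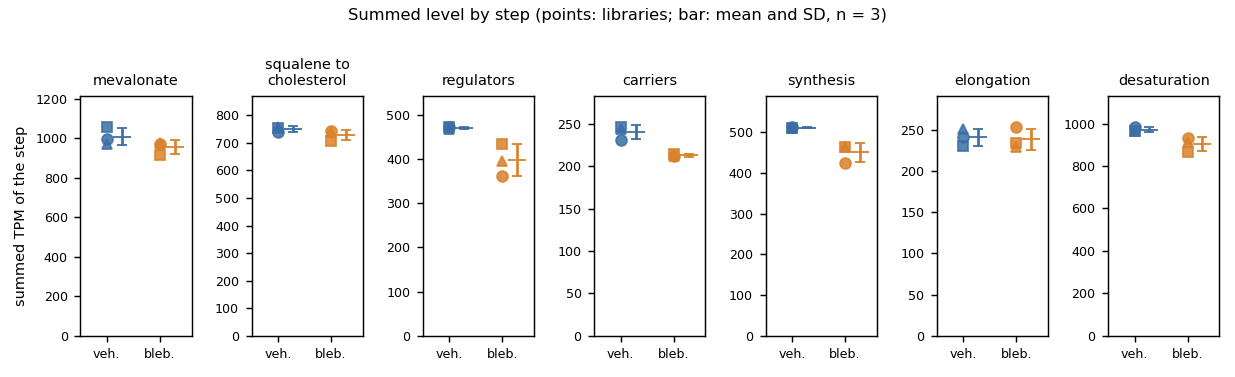
Summed TPM of the genes of each step in each library (points, vehicle blue and blebbistatin orange, circles, squares and triangles for replicates 1, 2 and 3) with the mean and SD of each group (n = 3), on axes from 0. The groups lie apart for regulators, carriers, synthesis and desaturation, and overlap for the mevalonate, squalene to cholesterol and elongation steps. The sums are not corrected for length or GC content.

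Values of several members moved with GC content, most of all in blebbistatin 1. Across the 35 members, the log2 difference of blebbistatin 1 from the vehicle mean had a Pearson correlation of -0.75 with the GC content of the longest transcript, while it was -0.03 for blebbistatin 2 and -0.24 for blebbistatin 3. Across 13317 tested genes the same correlations were -0.50, -0.05 and -0.27. The genes share libraries, so these values are descriptions. Mvk, Pmvk, Mvd, Srebf1, Srebf2, Scap and Fasn, the 7 members with at least 55% GC, a limit set after the values were seen, had a median difference of -0.42, -0.05 and -0.17 in blebbistatin 1, 2 and 3. In the other 28 members it was -0.03, -0.11 and -0.05.

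After a loess correction of each library for transcript length and GC content the median fold change was -0.10 in these 7 genes and -0.10 in the other 28. In that corrected fit by limma, Insig1 was at -0.34 (adjusted p = 0.0131), Tmem97 at -0.30 (adjusted p = 0.0214) and Fads2 at -0.21 (adjusted p = 0.0784), and all have GC contents under 55%. Of the members with more GC, Srebf1 was at -0.29 (adjusted p = 0.055), Fasn at -0.30 (adjusted p = 0.0842), Srebf2 at -0.11, Mvk at -0.10, Pmvk at -0.09, Mvd at -0.04 and Scap at -0.03, all nearer to 0 than before the correction. Several members with less GC lay farther below 0 than before it. Among these, Hmgcs1 was at -0.14 (adjusted p = 0.0763), Cyp51 at -0.18 (adjusted p = 0.0535), Msmo1 at -0.37, Scd2 at -0.13, Acaca at -0.14 and Idi1 at -0.11. With blebbistatin 1 left out and no correction made, the 7 members with more GC were at -0.30 for Srebf1, -0.24 for Fasn, -0.20 for Pmvk, -0.11 for Srebf2, -0.11 for Mvd, -0.06 for Scap and -0.05 for Mvk. What made blebbistatin 1 differ in this way was not tested.

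**Figure D5:**
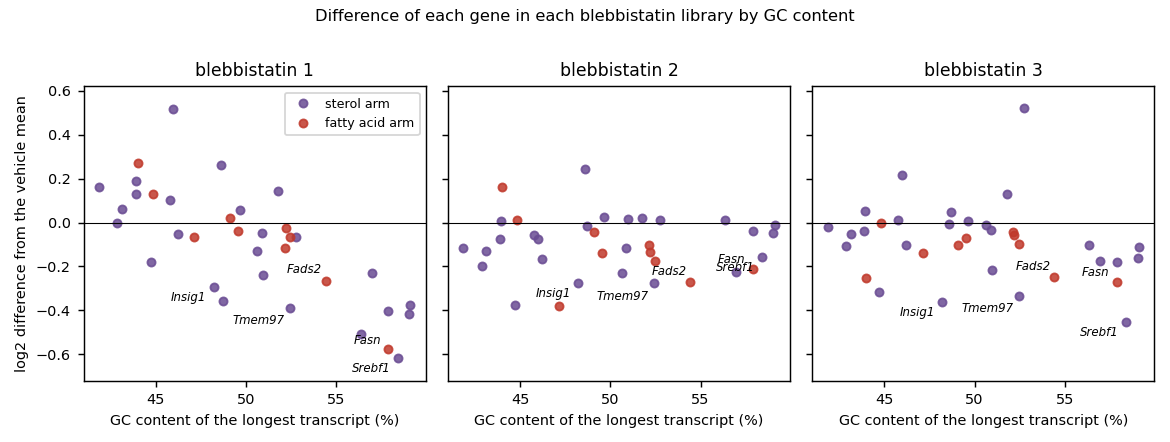
Log2 difference of TPM + 1 from the vehicle mean (vertical axis) against the GC content of the longest transcript in percent (horizontal axis) for the 35 members in blebbistatin 1, 2 and 3 (panels), with the sterol arm in purple and the fatty acid arm in red. The downward slope is plain in blebbistatin 1 (correlation -0.75) and nearly absent in blebbistatin 2 (-0.03), while Insig1, Tmem97 and Fads2 lie below 0 in all 3 panels.

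Among related genes outside the membership, 0 of 61 tested genes in 4 lists passed limma at the adjusted threshold. Over all tested genes 1.82% passed. At an unadjusted p under 0.05, 10 of the 61 were higher and 7 lower, where 12.9% and 9.99% of all tested genes were. In the isoprenoid branch, 9 genes had a median of -0.04, and Coq2, which builds ubiquinone and was the highest, stood at 57.8 ± 6.27 and 59.1 ± 1.47 TPM. Among 17 tested genes of sterol processing, esterification and the LXR response (median -0.06), 0610007P14Rik, a scaffold of sterol enzymes and the highest of them, stood at 142 ± 11.5 and 131 ± 5.66 TPM. Abcg1, a cholesterol exporter and target of the sterol-sensing LXR factors, stood at 15.8, 16.1 and 16.1 TPM with vehicle and at 19.8, 20.6 and 21.2 TPM with blebbistatin, higher in every library (0.34, SE 0.07, adjusted p = 0.0585 by limma). After the length and GC correction its adjusted p by limma was 0.0293. Of the 17 genes, 11 had fold changes below 0 and 6 above, and those tied to LXR went both ways. Abca1 and Nr1h3, both at a mean of 1.23 TPM, were at 0.42 and 0.40. Mylip was at -0.01, Lpcat3 at -0.17 and Nr1h2 at -0.38.

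Genes of fatty acid supply, elongation partners and activation (19 tested, median -0.05) included Tecr, the last enzyme of each elongation round and the highest, at 249 ± 3.60 and 238 ± 7.96 TPM. Slc25a1, which exports citrate from mitochondria to Acly, stood at 58.3 ± 3.84 and 45.4 ± 8.32 TPM without overlap (-0.37, adjusted p = 0.162). Its fold change was -0.20 after the length and GC correction. Fatty acid oxidation lay on the other side of 0. Of its 16 tested genes, 14 had fold changes above 0, with a median of 0.13. Of all 13372 tested genes 7373 were above 0, with a median of 0.03. In 9 of the 16 every blebbistatin library was higher than every vehicle library, where 18.0% of all tested genes showed this. With the length and GC correction values moved both ways, Hadhb from 0.13 to -0.02 and Acadl from 0.10 to 0.03, but Acads from 0.05 to 0.23 and Acadvl from 0.13 to 0.18. Slc25a20, the carnitine carrier, stood at 27.6, 27.3 and 24.7 TPM with vehicle and at 34.2, 33.9 and 31.6 TPM with blebbistatin (0.32, SE 0.07, adjusted p = 0.0805 by limma). Cpt1a, the enzyme that admits fatty acids to mitochondria, stood at 29.4 ± 0.570 and 34.3 ± 0.190 TPM (0.22, adjusted p = 0.106), and Hadha, the highest of the list, at 134 ± 4.48 and 140.3 ± 1.31 TPM.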

How the data were processed

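TPM and FPKM per gene were made and deposited by the authors, and the deposited coverage is a mean read depth with no normalization. The submitters' processing notes name the build mm10 and, without saying what each did, DESeq2 1.22.2, StringTie 1.3.4 and HISAT2 2.1.0. Genes that averaged 1 TPM or more were compared on log2(TPM + 1) with limma 3.58.1 in R 4.3.3, with its variance trend and with p-values adjusted by Benjamini-Hochberg over all 13372 genes. Values near 1 TPM are compressed by the pseudocount of 1. The test was first checked on simulated data with independent noise in each gene. These held no trend with GC content and no library that differed as a whole, so that check does not cover such features. Transcript length and GC content came from GENCODE for GRCm38, where 98.9% of identifiers matched, and from the longest transcript of a gene; 99.6% of tested genes had both. The correction was a loess fit in each library with a span of 0.5. Per the labels' protocols, the kit was TruSeq, so strand was taken as unknown.

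The members and lists were chosen with earlier results of these data known. Members that passed, had an unadjusted p under 0.05 or had the highest level of their step were given in every library. The others shown in this way were chosen after their values were seen. So were Abcg1, Abca1, Nr1h3, Mylip, Lpcat3, Nr1h2, Slc25a1, Slc25a20 and Cpt1a. Alternatives covered pseudocount, minimum level, FPKM, scaling, limma options, replicate block, length and GC, biotype and each left-out library. Of the marker genes, 1 was not matched. Figures used matplotlib 3.10.9.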

Additional observations from a re-analysis of the deposited data

How the results depend on the processing

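The fold changes of Insig1 and Tmem97 stayed negative in all 20 alternatives, and they passed in 11 and 10 of them. The call of 2 sterol arm genes became 3 after the length and GC correction, 1 with quantile scaling, and 0 with no minimum level, with no mean-variance trend, with the replicate block and with the block and the correction together. Leaving out a library gave 0 to 3. In the fatty acid arm 1 gene, Fads2, passed with median-ratio scaling and among protein-coding genes, and leaving out a library gave 0 to 1. The sterol arm median was -0.14 with median-ratio scaling, -0.072 with quantile scaling and -0.12 to -0.072 when a library was left out. Of all genes 49 passed with no minimum level, 160 with no trend, 461 after the length and GC correction, 0 with the replicate block, where 2628 had an unadjusted p under 0.05, 0 with the block and the correction, where 2873 did, and 3 to 1092 when a library was left out. Deviations of same-numbered libraries correlated at 0.01, -0.04 and -0.03, and those of differently numbered libraries at -0.03 to 0.06. The block leaves fewer residual degrees of freedom. What caused these changes in the number of calls, with the block or without it, was not tested. Among uncalled members 11 changed sign in at least 1 alternative, all with main values within 0.16 of 0, in 30 of 700 pairs of member and alternative. The lowest member had a mean of 14.9 TPM, and each group had only 3 libraries. How far depth or group size limited the calls was not tested.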
